A study of Rattus with 6 samples.

Results

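The insulin-like growth factor (IGF) system was examined in cultured rat cardiac fibroblasts with and without knockdown of Nono, through 9 genes: the ligands Igf1 and Igf2, the receptor Igf1r, and the binding protein genes Igfbp2, Igfbp3, Igfbp4, Igfbp5, Igfbp6 and Igfbp7. They were found by their gene symbols, and all 9 were present among 21378 genes in the count table. Of these, 7 had enough reads to be tested, and Igfbp2 and Igfbp5 did not.

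Messenger RNA was sequenced from 6 libraries of a commercially supplied rat cardiac fibroblast line. The 3 siNONO libraries came from cells given an siRNA against Nono by lipofection. The 3 control libraries carry the title siCtrl, while a different label field lists them as given an empty vector; the nature of the control is therefore unclear. Harvest 48 h after transfection is stated for RT-qPCR and western blotting only, and no strain, sex or age of the source animals was stated in the labels used. Nothing says that replicates were separate cultures, so the p-values reflect spread among these libraries, possibly of technical origin. NONO binds RNA and DNA in the nucleus and is found in paraspeckles.

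IGF1 and IGF2 are secreted peptides that signal through the IGF1 receptor, a tyrosine kinase coupled to the PI3K-AKT-mTOR and MAPK pathways. The classical IGF binding proteins hold the ligands with high affinity outside the cell, where they can both withhold and store them, and proteases release the ligand again. IGFBP7 is a related protein with low affinity for IGFs. Fibroblasts are a main source of these factors in connective tissue, and in the heart IGF1 is known as a growth and survival factor for cardiomyocytes.

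Total counts per library ranged from 27792357 to 33365588. The knockdown target Nono, on chromosome X, was at 69.9, 76.1 and 73.6 CPM (counts relative to TMM-scaled library size) in siNONO against 237, 233 and 247 CPM in siCtrl (log2 fold change -1.70 ± 0.05, SE; edgeR adjusted p = 4.57e-11). All 12 listed fibroblast markers were detected, with Col1a1 highest at a mean of 15858.5 CPM in siCtrl by the same scale. Of 7 cardiomyocyte markers in the table, Myh6, Actc1, Actn2 and Ryr2 stayed at or below 0.0490 CPM in both group means. The others were Tnnt2, at 152 ± 8.38 CPM in siCtrl and 112 ± 4.55 CPM in siNONO, Pln, at 2.33 and 1.82 CPM, and Tnni3, at 0.391 and 0.274 CPM. Here and below, a gene was called raised or lowered at a Benjamini-Hochberg adjusted p under 0.05 in edgeR's quasi-likelihood test over all 14412 genes tested. Positive log2 fold changes mean higher levels in siNONO, and each is given with its standard error. Of the 12 fibroblast markers 4 were lowered (Lum, -0.91 ± 0.06; Dcn, -0.32 ± 0.06; Tcf21, -0.22 ± 0.05; Vim, -0.19 ± 0.04), 1 was raised (Ddr2, 0.13 ± 0.04) and 7 did not pass. These are 33.3% lowered and 8.33% raised, beside 15.9% and 16.2% of all tested genes. The summed level of the 12 was 40260.4 to 42999.8 CPM in siCtrl and 40094 to 40815 CPM in siNONO. Most of this sum was collagen genes and Fn1, while Lum was at 35.6 CPM in siCtrl and 18.9 CPM in siNONO. The part of the fibroblast markers in the changes of the members was not tested. All levels are of RNA in bulk cultures, in which fewer cells of a type and less RNA per cell cannot be told apart, and protein levels were not measured here.

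The IGF system was built on few abundant mRNAs. Per gene length, in the deposited FPKM values (fragments scaled to gene length and library size), Igfbp7 was the highest member in siCtrl at 858 ± 22.7 FPKM (SD, n = 3 here and for all means below). Igfbp3, which carries most circulating IGF, followed at 566 ± 52.1 FPKM. These 2 genes ranked 122nd and 165th of 14412 tested genes by mean FPKM in siCtrl. Igf1 (97.7 ± 7.14 FPKM), Igfbp4 (82.4 ± 11.8 FPKM) and Igfbp6 (59.1 ± 6.11 FPKM) formed a middle tier. Igf1r was at 3.29 ± 0.135 FPKM and Igf2 at 0.0733 ± 0.0404 FPKM. Among neighbours in this order, the siCtrl values of Igf1 and Igfbp4 overlapped and the others did not. In siNONO, Igfbp7 (739 ± 19.1 FPKM) and Igfbp3 (679 ± 44.02 FPKM) came to overlap. Below them Igfbp4 (66.7 ± 7.85 FPKM) now stood above Igf1 (54.4 ± 3.21 FPKM), and Igf1 overlapped with Igfbp6 (48.5 ± 2.67 FPKM).

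**Figure D1:**
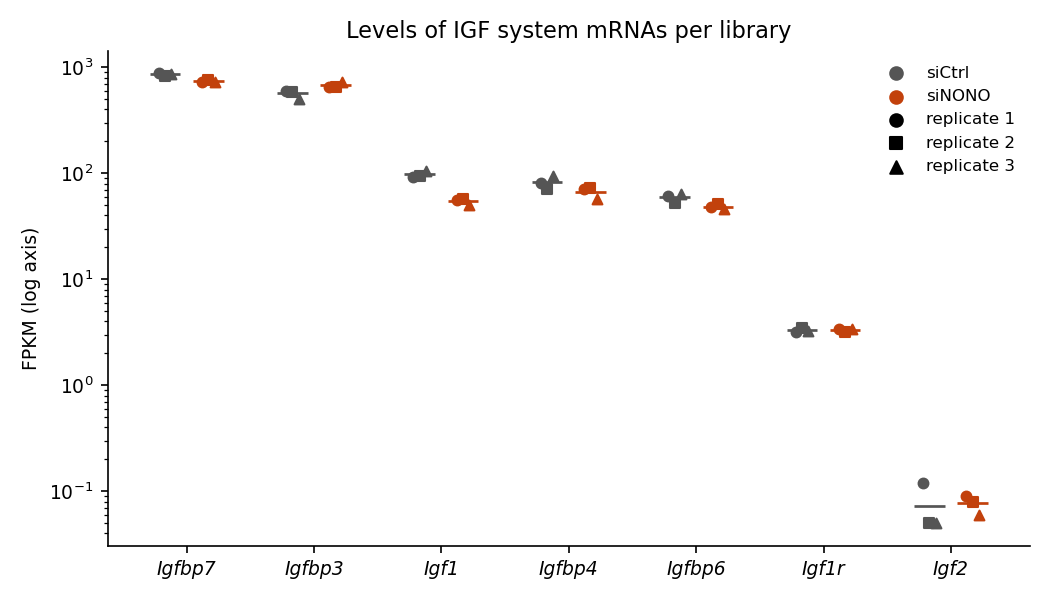
Level of each of the 7 tested IGF system genes in each library, in FPKM on a log axis, with siCtrl in grey, siNONO in orange, marker shapes for the replicate numbers and horizontal lines for group means. Igf1 is lower in all 3 siNONO libraries than in any siCtrl library, Igfbp3 is higher, and Igf1r lies at the same height in both groups.

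Of the 7 tested members, 4 were lowered (Igf1, Igfbp4, Igfbp6 and Igfbp7), 1 was raised (Igfbp3) and 2 did not pass (Igf2 and Igf1r). Of all tested genes 15.9% were lowered and 16.2% raised. The median log2 fold change of the 7 was -0.27, beside 0.00 for all genes. The 2 groups did not overlap in CPM for 5 of the 7, where 45.0% of all tested genes had no overlap. Most changes were modest: those of Igfbp3, Igfbp4, Igfbp6 and Igfbp7 lay between 0.21 and 0.36 in size on the log2 scale, beside a median of 0.30 for all called genes, and that of Igf1 was larger.

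Igf1 (gene-Igf1, chromosome 7), the main IGF ligand of these cells, fell to 53.8% of its control level. It was at 983, 986 and 1105 CPM in siCtrl replicates 1, 2 and 3 and at 560, 581 and 513 CPM in siNONO replicates 1, 2 and 3. Every siNONO library was thus far below the lowest control, and the gap was several times the spread within either group. On the log2 scale this is -0.89 ± 0.06 (95% confidence interval -1.02 to -0.77; edgeR adjusted p = 1.04e-07). This change exceeded in size that of 97.3% of tested genes. With any 1 library left out it stayed between -0.94 and -0.84 and remained called.

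Macrophages are another known source of Igf1, and their marker genes were present in these cultures. Of 13 macrophage and leukocyte markers 6 were lowered (46.2%, beside 15.9% of all tested genes) and the other 7 did not pass. Their median log2 fold change was -0.18. The lowest values were -0.50 ± 0.06 for Adgre1 and -0.30 ± 0.06 for Csf1r, and the highest was 0.15 ± 0.10 for Ptprc. The summed level of the 13 was 1618 to 1814 CPM in siCtrl and 1521 to 1642 CPM in siNONO, with overlapping ranges. Most of this sum was Lyz2, which did not pass, at 1002 CPM in siCtrl and 921 CPM in siNONO. None of the 13 was at 0. Adgre1, Csf1r, Ptprc and Lyz2 were named after their values were seen. The part of these markers in the lower Igf1 was not tested.

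Igf2 (gene-Igf2, chromosome 1), the second ligand, is a fetal growth factor that is imprinted in rodents. It had 26, 11 and 13 reads in the siCtrl libraries and 21, 21 and 17 reads in the siNONO libraries. The groups overlapped, and siCtrl replicate 1 alone held the highest count. The log2 fold change was 0.08 ± 0.36 (95% confidence interval -0.70 to 0.85; edgeR adjusted p = 0.898), so changes within that wide range were not detectable at this depth. Its sign turned without siCtrl replicate 2 (-0.14), without siCtrl replicate 3 (-0.15) and without siNONO replicate 1 (-0.03), and without siCtrl replicate 1 the value was 0.61 (edgeR adjusted p = 0.224).

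Igf1r (gene-Igf1r, chromosome 1), the receptor for both ligands, did not pass. Its levels were 50.1, 52.8 and 50.3 CPM in siCtrl and 50.9, 48.0 and 50.4 CPM in siNONO, and the groups overlapped closely. Its log2 fold change of -0.04 ± 0.05 had a 95% confidence interval of -0.14 to 0.06 (edgeR adjusted p = 0.573). The sign became positive with total library size and in the FPKM fits (0.01 in each). Per gene length the ratio of ligand to receptor mRNA went with Igf1: Igf1 exceeded Igf1r 29.0-, 27.6- and 32.5-fold in siCtrl and 16.3-, 17.9- and 15.1-fold in siNONO (two-sided exact permutation p = 0.1, which is the minimum for 2 groups of 3).

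Igfbp3 (gene-Igfbp3, chromosome 14) was the raised member. It stood at 1658, 1578 and 1366 CPM in siCtrl and at 1696, 1728 and 1902 CPM in siNONO. The groups did not overlap, but siNONO replicate 1 lay close to siCtrl replicate 1. The log2 fold change was 0.21 ± 0.07 (edgeR adjusted p = 0.0240), a level 15.7% higher. This call rested on replicate 3 of each group: without siCtrl replicate 3, its lowest library, the value was 0.13 (edgeR adjusted p = 0.115), and without siNONO replicate 3, its highest, it was 0.16 (edgeR adjusted p = 0.131).

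Igfbp4 (gene-Igfbp4, chromosome 10), whose product is known mainly as an inhibitor of IGF action, was at 200, 171 and 229 CPM in siCtrl and 165, 170 and 135 CPM in siNONO. The groups came within 2 CPM of each other, at siCtrl replicate 2 and siNONO replicate 2, with siCtrl replicate 3 highest and siNONO replicate 3 lowest. Its log2 fold change was -0.36 ± 0.09 (edgeR adjusted p = 0.0101). The call ended without siCtrl replicate 3 (-0.25, edgeR adjusted p = 0.0508) and without siNONO replicate 3 (-0.26, edgeR adjusted p = 0.0529). It also ended with the DESeq2 Wald test (adjusted p = 0.0744) and in the limma fits to FPKM (adjusted p from 0.0583 to 0.0755).

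Igfbp6 (gene-Igfbp6, chromosome 7) encodes a binding protein with a preference for IGF2. It had 60.9, 50.2 and 61.7 CPM in siCtrl and 44.7, 48.8 and 43.5 CPM in siNONO. All siNONO values were lower, by a narrow margin to siCtrl replicate 2. The log2 fold change was -0.34 ± 0.07 (edgeR adjusted p = 0.00260), and the call held in each of the 15 alternatives.

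Igfbp7 (gene-Igfbp7, chromosome 14), a secreted protein of the extracellular matrix and basement membrane, was at 1105, 1021 and 1064 CPM in siCtrl. In siNONO it was at 866, 917 and 870 CPM. The groups were well separated. Its log2 fold change of -0.27 ± 0.04 (edgeR adjusted p = 0.000447) was the smallest of the 4 falls and had the smallest standard error of the 5 called members, and the call held in each of the 15 alternatives.

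Igfbp7 and Igfbp4 are also known from vascular cells. Of 9 tested markers of pericytes and smooth muscle 5 were lowered (55.6%) and 1 raised (11.1%), beside 15.9% and 16.2% of all tested genes. Their median log2 fold change was -0.28, in a range from -0.88 to 0.36. The summed level of this list was 163 to 178 CPM in siCtrl and 144 to 149 CPM in siNONO, without overlap. Its highest genes were Mylk (76.6 CPM in siCtrl and 67.0 CPM in siNONO) and Kcnj8 (41.8 and 34.4 CPM), both lowered. Abcc9 came next and did not pass (20.2 and 20.1 CPM). Rgs5 was at or under 0.0220 CPM in both group means. Of 8 tested endothelial markers Tek was raised and the other 7 did not pass, with summed levels of 45.9 to 47.8 and 46.2 to 48.2 CPM. Among further lists, 1 of 3 tested cardiomyocyte markers was lowered (Tnnt2, -0.45), 1 of 4 Schwann cell markers was raised (Cnp, 0.42), and of 7 epicardial and mesothelial markers 3 were raised and 1 lowered. The marker genes Mylk, Kcnj8, Abcc9, Tek and Cnp, and the fibroblast and cardiomyocyte markers above, were named after their values were seen. The part of these markers in the changes of the members was not tested.

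**Figure D2:**
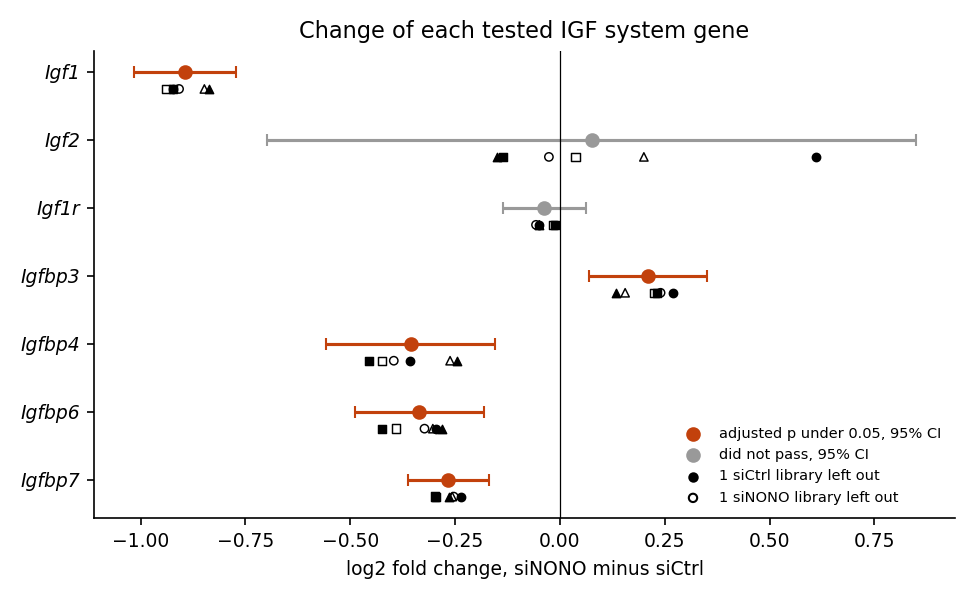
Log2 fold change (siNONO minus siCtrl) of each tested member, with its 95% confidence interval from edgeR; filled and open black symbols below each give the value with 1 siCtrl or 1 siNONO library left out, with a circle, square or triangle for replicate 1, 2 or 3. Igf1 lies near -0.89 whichever library is left out, while Igfbp3 and Igfbp4 come closest to 0 without replicate 3 of either group.

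Igfbp2 and Igfbp5 were at the limit of detection. Igfbp2 had 3 reads in siCtrl replicate 1 and 0 in the other 5 libraries, and Igfbp5 had 2 reads in each of the 6 libraries. A count of 0 allows up to 3 counts, which is 0.0879 to 0.112 CPM here and covers counting error only. No fold change is given for either. On rat chromosome 9 the 2 genes are next to each other among protein-coding genes in the RefSeq annotation of assembly GRCr8, which was used for gene order only, as the deposited files rest on mRatBN7.2.

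Neighbouring genes in that annotation were chosen for comparison after the data were seen. Parpbp, beside Igf1, was at 1.74 CPM in siCtrl and did not pass (-0.07 ± 0.20). Beside the lowered Igfbp7, the RNA polymerase II subunit gene Polr2b was raised (0.21 ± 0.05). Beside Igfbp4, the topoisomerase gene Top2a was raised (0.37 ± 0.11), and beside Igfbp6, Spryd3 was raised (0.14 ± 0.05). Mrpl23, a mitochondrial ribosomal protein gene beside Igf2, was lowered (-0.21 ± 0.06). The noncoding H19, imprinted together with Igf2, was at 0.0351 CPM in siCtrl and 0.0503 CPM in siNONO and was not tested. The neighbours of Igfbp3, Igfbp1 and Mospd1l1, had no single matching symbol in the count table, so no values are given for them.

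The make-up of the binding protein mRNA pool shifted from Igfbp7 towards Igfbp3, while its summed level in the deposited FPKM overlapped between the groups. Summed over the 6 binding protein genes, the level was 1624, 1547 and 1528 FPKM in siCtrl and 1496, 1540 and 1563 FPKM in siNONO. The groups overlapped, with means of 1566 ± 50.7 and 1533 ± 33.9 FPKM (exact two-sided permutation p = 0.5). The log2 ratio of siNONO to siCtrl was -0.03. With the FPKM scaled by TMM factors it was -0.08, and every siNONO library then lay below every siCtrl library. Igfbp3 made up 37.1%, 38.1% and 33.2% of this sum in siCtrl and 43.5%, 42.6% and 46.7% in siNONO. Igfbp7 made up 54.1%, 53.9% and 56.5% in siCtrl and 48.6%, 49.4% and 46.7% in siNONO. Neither share overlapped between the groups (exact two-sided permutation p = 0.1 each). The share of Igfbp6 went from 3.77% ± 0.396 to 3.17% ± 0.190, also without overlap, and that of Igfbp4 from 5.27% ± 0.832 to 4.36% ± 0.579, with overlap (exact two-sided permutation p = 0.1 and 0.3). Igfbp3 and Igfbp7 together held 90.9% ± 1.21 of the sum in siCtrl and 92.5% ± 0.754 in siNONO. Igfbp7, whose product has low affinity for IGFs, alone held a mean of 54.8% in siCtrl and 48.2% in siNONO. The summed level therefore does not give the level of the high-affinity binding protein genes. Of those, Igfbp3 was raised while Igfbp4 and Igfbp6 were lowered, and a sum without Igfbp7 was not calculated.

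**Figure D3:**
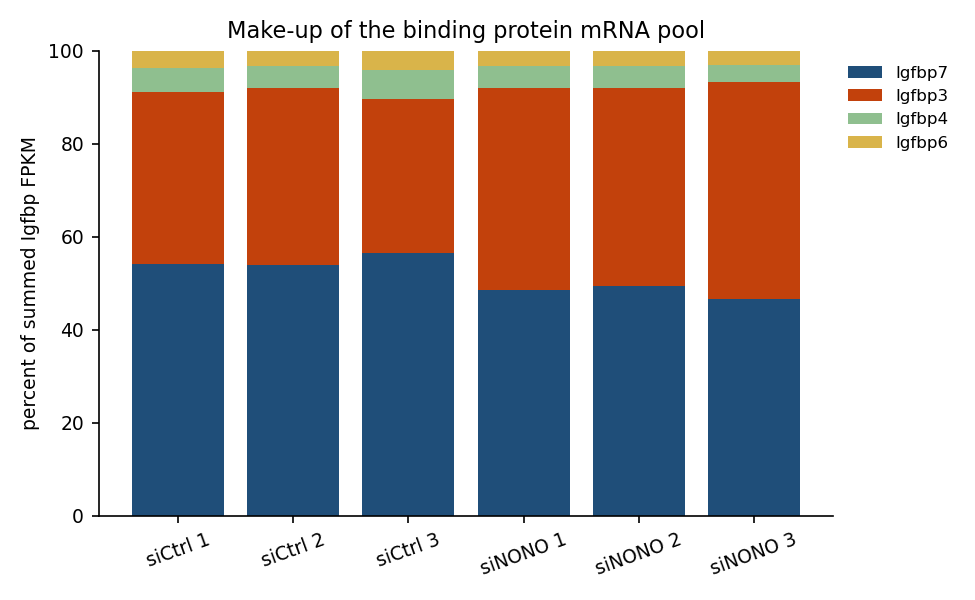
Share of Igfbp7, Igfbp3, Igfbp4 and Igfbp6 in the summed FPKM of the binding protein genes, as stacked bars in percent for each library; Igfbp2 and Igfbp5 are too low to be seen. The Igfbp3 segment is between 33.2% and 38.1% in siCtrl and between 42.6% and 46.7% in siNONO.

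Ratios between members followed from these shifts. Igfbp3 stood at 0.686, 0.707 and 0.587 of Igfbp7 per gene length in siCtrl and at 0.896, 0.861 and 1.00 in siNONO, so that in siNONO replicate 3 the 2 mRNAs were level. Igf1 amounted to 5.68%, 6.14% and 6.92% of the summed binding protein FPKM, Igfbp7 included, in siCtrl and to 3.71%, 3.69% and 3.25% in siNONO. The Igf1 level was above that of Igfbp4 in every siCtrl library, at 1.14, 1.33 and 1.11 times, and below it in every siNONO library, at 0.786, 0.791 and 0.880 times. None of these 3 ratios overlapped between the groups (exact two-sided permutation p = 0.1 each, the smallest possible).

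**Figure D4:**
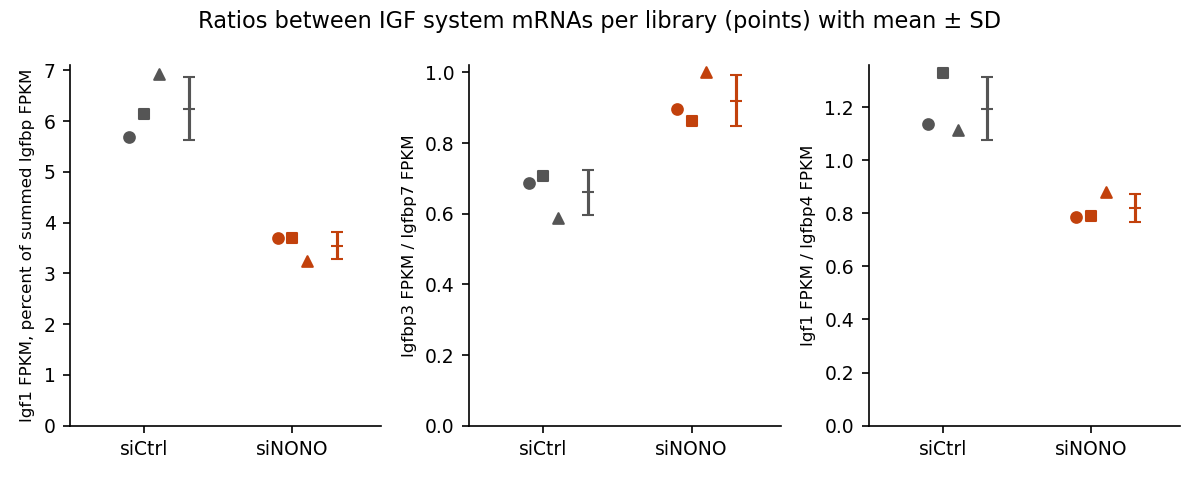
Igf1 as percent of summed binding protein FPKM, Igfbp3 over Igfbp7 and Igf1 over Igfbp4 (ratios of FPKM), 1 point per library with marker shapes for the replicate numbers and the mean ± SD beside them. The siCtrl and siNONO points are apart in all 3 panels, with Igf1 over Igfbp4 above 1 in siCtrl and below 1 in siNONO.

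Replicate 3 of each group held the extremes of several members. In siCtrl, replicate 3 had the highest Igf1, Igfbp4 and Igfbp6 and the lowest Igfbp3. In siNONO, replicate 3 had the lowest Igf1, Igfbp4 and Igfbp6 and the highest Igfbp3. Across the 6 libraries, the genes of at least 5 CPM most like Igf1 in log2 CPM were Man2b1 (r = 0.998), Tmem150a (r = 0.998) and Kctd12 (r = 0.997), which fell along with it. As 681 of 10502 genes had r over 0.95 with Igf1, and all share the difference between the groups, these are 3 among many. Those most like Igfbp3 were Bcl3 (r = 0.995), Sgk1 (r = 0.992) and Hnrnpab (r = 0.991), and 33 genes had r over 0.95.

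Beyond the members, genes that act before or after the receptor changed in both directions. Of 54 such genes listed, 50 were in the table and 46 were tested. Of these 9 (19.6%) were raised and 12 (26.1%) lowered, beside 16.2% raised and 15.9% lowered of all tested genes, and their median log2 fold change was -0.04. Which direction held more calls differed between settings. With total library size 12 were raised and 9 lowered, and in the limma fits to FPKM 10 to 11 were raised and 6 lowered. Without siNONO replicate 3, 5 were raised and 9 lowered. Of the other receptors and carriers, the insulin receptor gene Insr was lowered (26.2 ± 0.710 to 22.6 ± 0.658 CPM; -0.21 ± 0.05), a call lost in the FPKM fits (adjusted p from 0.108 to 0.131). Igf2r, the scavenging receptor that clears IGF2 and sorts lysosomal enzymes, was singled out after its values were seen. It had -0.13 ± 0.05 and just missed the threshold (edgeR adjusted p = 0.0508), passing it in 5 of the 15 alternatives. Insrr and the acid-labile subunit gene Igfals had too few reads to be tested.

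Genes that set the release of IGF from its binding proteins included the largest fall among the pathway genes, that of Stc1. Stc1 and Stc2 encode stanniocalcins, secreted inhibitors of the pappalysin proteases that cleave IGFBP4 and IGFBP5, and they moved in opposite directions. Stc1 was at 23.9, 24.2 and 28.4 CPM in siCtrl and at 11.9, 10.4 and 9.76 CPM in siNONO (log2 fold change -1.26 ± 0.09; edgeR adjusted p = 2.40e-07). Stc2 rose from 32.1 ± 1.13 to 37.7 ± 0.518 CPM (0.23 ± 0.05; edgeR adjusted p = 0.00201). Adam12, a metalloprotease known to cleave IGFBP3 and IGFBP5, fell from 254 ± 13.0 to 159 ± 11.0 CPM (-0.67 ± 0.05; edgeR adjusted p = 7.47e-07). The other 3 tested genes of this list did not pass. The pappalysin gene Pappa was not found by its symbol in the count table, and Pappa2 was below 1 CPM in both group means.

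Of 4 tested regulators of Igf2 expression and mRNA, 2 were raised (50%) and 1 lowered (25%), beside 16.2% and 15.9% of all tested genes. Igf2 itself stayed near the detection limit. Hmga2, a chromatin protein that promotes Igf2 transcription, rose from 2.63 ± 0.523 to 4.19 ± 0.300 CPM (0.67 ± 0.15). Igf2bp3, an mRNA-binding protein, rose from 9.79 ± 0.735 to 13.0 ± 0.246 CPM (0.41 ± 0.08). Its paralog Igf2bp2 was lowered (-0.15 ± 0.05; edgeR adjusted p = 0.0286), a call lost in 10 of the 15 alternatives, among them those without siCtrl replicate 2 or 3 or without siNONO replicate 1 or 3 (edgeR adjusted p from 0.0569 to 0.136).

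Inside the cell, most adaptors did not pass and the PI3K, AKT and mTOR relay was mixed. Of 11 adaptors and docking proteins, Shc1, which links the receptor to the MAPK pathway, was lowered (195 ± 2.02 to 163 ± 2.46 CPM; -0.26 ± 0.04), and the other 10, Irs1 and Irs2 included (named after their values were seen), did not pass. Of 23 relay genes 6 were raised (26.1%) and 7 lowered (30.4%), beside 16.2% and 15.9% of all tested genes. The transcription factor gene Foxo1, which AKT restrains, rose from 8.68 ± 0.265 to 12.5 ± 0.380 CPM (0.52 ± 0.08), and the PI3K regulatory subunit gene Pik3r3 fell from 15.9 ± 0.355 to 10.9 ± 0.588 CPM (-0.54 ± 0.07). The 2 partners of the complex that holds back mTOR went apart, with Tsc1 at 0.24 ± 0.06 and Tsc2 at -0.24 ± 0.05. The call of Tsc1 was lost without siNONO replicate 1 (edgeR adjusted p = 0.0514) and without siNONO replicate 3 (edgeR adjusted p = 0.0531), and that of Tsc2 in the FPKM fits (adjusted p up to 0.0667). Of the remaining called relay genes, Rptor (0.23 ± 0.05), Akt1 (-0.18 ± 0.04) and Rheb (-0.19 ± 0.04), named after their values were seen, kept their calls in all 15 alternatives, and 6 others lost them in 3 to 12 of the 15.

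**Figure D5:**
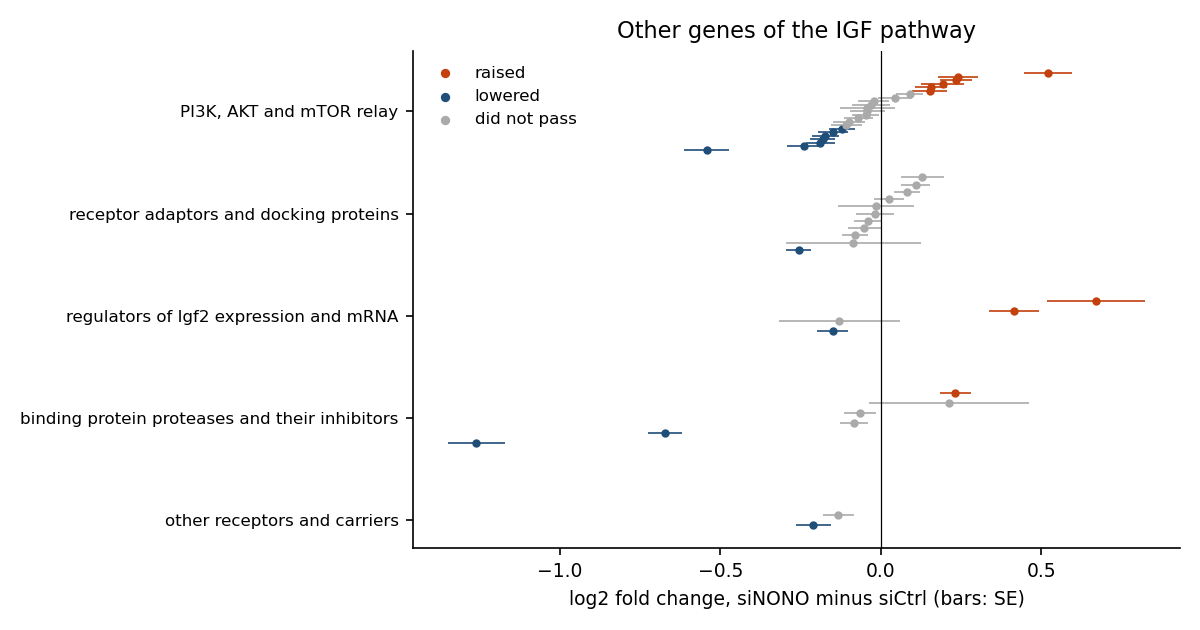
Log2 fold change (siNONO minus siCtrl, with SE bars) of the 46 tested pathway genes, grouped by role; orange and blue mark genes raised and lowered at an adjusted p under 0.05 and grey those that did not pass. Stc1 is the point farthest to the left, at -1.26, and the adaptors cluster around 0.

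Other secreted proteins share the N-terminal module of the binding proteins, the CCN matricellular proteins among them. Of 9 tested, 3 were raised (33.3%) and 1 was lowered (11.1%), beside 16.2% and 15.9% of all tested genes. Their median log2 fold change was 0.23. Ccn5 rose from 162 ± 12.3 to 247 ± 10.3 CPM (0.61 ± 0.05) and Ccn3 from 381 ± 19.04 to 455 ± 12.9 CPM (0.26 ± 0.05). Kazald1, a secreted protein with this module, fell from 32.1 ± 1.39 to 23.2 ± 1.22 CPM (-0.47 ± 0.06). The remaining raised gene, Ccn1, was named after its values were seen and had 0.14 ± 0.05 (edgeR adjusted p = 0.0371).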

How the data were processed

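The deposited count table gives the authors' raw read counts per gene (whole numbers, 21378 genes). The deposited FPKM table gives the authors' FPKM values for 21081 genes. The submitters' processing notes name HISAT2, edgeR and build mRatBN7.2; no versions, counter or strand setting were stated, so overlapping and antisense genes are uncertain. Per the labels' protocols, poly(A) mRNA entered a stranded kit. There were 0 columns of unmapped samples.

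Counts were analysed with edgeR 4.0.16 in R 4.3.3 (filterByExpr, TMM, glmQLFit, glmQLFTest, 4 residual degrees of freedom, two-sided); SE is log2 fold change over the square root of F. Levels of different genes were compared in FPKM, single values by exact permutation. Pairs of libraries within a group differed beyond sampling noise (chi-square per degree of freedom 3.33 to 8.05). The fits were tested on simulated data.

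Alternatives: size factors of DESeq2 1.42.0, total library size, no filter, 1 CPM in 3 libraries, the DESeq2 Wald test, limma 3.58.1 on log2 of FPKM + 1, of FPKM + 0.1 or with 1 FPKM in 3 libraries, a replicate block, and each library left out. Members and lists were chosen with earlier results of these data known. The ratios between members and the comparison with neighbouring genes were added after the data were seen. One neighbouring gene is not reported here. The rule named up to 2 rises and 2 falls past the threshold per list, or the gene of lowest p where none passed, and, for the members with the largest rise and fall, the 3 genes of at least 5 CPM with the highest Pearson r over the 6 libraries. Figures were drawn with matplotlib 3.10.9.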

Additional observations from a re-analysis of the deposited data

How the results depend on the processing

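Igf1, Igfbp6 and Igfbp7 kept direction and call in all 15 alternatives. With total library size the split of all calls was 3174 raised to 1673 lowered (65.5% raised, against 50.5% in the main analysis) and the median of all genes 0.05; the members still showed 1 raised and 4 lowered. Without each library in turn, 0 to 1 members and 5 to 8 pathway genes were raised. With total library size 12 pathway genes were raised and 9 lowered, against 9 and 12. The lowered pathway genes were 6 with log2(FPKM + 1), 6 with log2(FPKM + 0.1) and 6 with at least 1 FPKM in 3 libraries. Of all calls in these fits 64.7%, 64.3% and 65.4% were raised, and the cause was not tested. The summed binding protein level had a log2 ratio of -0.03 in FPKM, -0.08 in FPKM scaled by TMM factors and 0.0034 in TMM-scaled CPM, which is not per length. Igf1r turned to 0.01 with total library size (0.0135) and in the FPKM fits (0.0090, 0.0114 and 0.0090). Igf2 ranged from -0.15 to 0.61 without 1 library, and at 11 to 26 reads per library depth limits it; it was not tested at 1 CPM or 1 FPKM in 3 libraries.

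The replicate numbers did not pair the libraries: deviations of same-numbered libraries had r = -0.0837, -0.136 and -0.00322. No library correlated best with its own number. With a replicate block 0 members were raised and 4 lowered, with Igfbp3 at 0.21 (adjusted p = 0.0633), and 1894 genes were raised and 1863 lowered in all.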
